A study of Mus musculus with 18 samples.

Results

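Interferon-stimulated genes are the transcripts that cells raise when an interferon binds its receptor. A list of 39 such genes was drawn up and matched by mouse Entrez identifier to the 36528 genes counted in each library. All 39 were found. Of them, 35 held enough counts to be tested, among 16875 genes tested in all. The cells were mouse embryonic stem cells, and the protein altered was BAP1, an enzyme that takes ubiquitin off histone H2A. There were 3 libraries in each of 6 groups. In BAP1 knockout cells, Cre recombination of a conditional Bap1 allele had been induced with 100 nM 4-hydroxytamoxifen (4-OHT) for 4 days, and the same conditional line without 4-OHT was its control. In C91A mutant cells the same treatment had given a knock-in allele that changes the catalytic cysteine of BAP1, and the same line without 4-OHT was its control. Double knockout cells lacked both BAP1 and RNF2, the ligase that places ubiquitin on histone H2A, and had also received 4-OHT. Wild-type cells formed the last group, and the sources used here do not state whether they received 4-OHT. Every group was kept in emricasan, a caspase inhibitor that protects cells from death after BAP1 loss.

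Each allele was thus read together with the drug and with Cre activity, since the controls had no 4-OHT. The sources used here name neither the driver of Cre nor the number of clones behind each line. No library of the double knockout line without 4-OHT was analysed here, so line and genotype cannot be told apart in its comparisons. The labels do not say whether the 3 libraries of a group came from separate cultures, so p-values measure only the spread between these libraries. The pooled material also means that fewer cells with a transcript and less transcript per cell cannot be told apart.

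As background, type I and type III interferons signal through receptor-bound JAK kinases to transcription factors, among them STAT2. STAT2 and IRF9 are parts of the complex ISGF3, which binds the interferon-stimulated response element (ISRE) in front of its target genes. The targets encode sensors of viral RNA, enzymes and RNA-binding proteins that block translation, the ubiquitin-like protein ISG15 with its ligases and protease, and membrane or nuclear factors that restrict viruses. Pluripotent cells are known for a weak interferon response and for steady expression of some of these genes without interferon.

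The RefSeq promoters of GRCm38.p6 show where the response element stands in front of the listed genes. A promoter was found for 30 of the 39 genes, and the ISRE core, which is GAAA, any 2 bases and GAAA again, was sought on both strands in the 250 bases before each annotated start. It was present in 8 of the 30 (26.7%), against 936 of 27025 genes (3.46%) with a listed promoter. The 8 genes were Isg15, Oas1a, Bst2, Stat2, Rsad2, Trim30a, Ifit1 and Ifit3. Several genes with large changes below had no listed promoter, such as Usp18, Ifi27 and Parp14. Others, such as Ddx58, Trim25 and Lgals3bp, had no ISRE core in these 250 bases. Windows of the 8 genes other than Ifit1 and Ifit3 follow, with the matches in capitals, 5′ to 3′ along the gene's strand.
Isg15, chr4:156200866-156200905 (minus strand): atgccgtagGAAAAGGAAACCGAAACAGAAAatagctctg
Oas1a, chr5:120907526-120907560 (minus strand): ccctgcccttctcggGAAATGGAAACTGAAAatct
Bst2, chr8:71537578-71537617 (minus strand): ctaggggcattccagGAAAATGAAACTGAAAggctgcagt
Stat2, chr10:128270261-128270300 (plus strand): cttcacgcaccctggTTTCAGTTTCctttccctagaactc
Rsad2, chr12:26456548-26456587 (minus strand): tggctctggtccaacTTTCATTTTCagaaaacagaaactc
Trim30a, chr7:104465205-104465244 (minus strand): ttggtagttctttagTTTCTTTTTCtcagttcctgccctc

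The Isg15 window held 3 overlapping matches, the nearest of which ended 57 bases before the start. Oas1a and Bst2 each held 2 overlapping matches, the nearer of them ending 5 and 115 bases before the start. Stat2, Rsad2 and Trim30a held 1 match each, read on the opposite strand of the window. The GAS motif TTCNNNGAA, another element of interferon-responsive promoters, was present in 6 of the 30 members (20%) and in 2197 of the 27025 genes (8.13%). It stood in Irf1, Ifit2, Oas1a, Eif2ak2, Bst2 and Samhd1, so Oas1a and Bst2 held both motifs. A match describes these letters in this window and no binding was measured.

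Counts per library totalled 8106613 to 23039407, and the lowest total was that of a knockout library. Levels are given in CPM, each library's counts brought to one common total, after scaling by the trimmed mean of M-values, in library order within a group. A change is given on the log2 scale, with its standard error (SE) and the p-value of the quasi-likelihood test of edgeR, adjusted by the Benjamini-Hochberg method over the 16875 genes. A gene was called where the adjusted p was under 0.05. The median change over all tested genes was at most 0.03 in size in every comparison. Bap1 itself averaged 149.8 ± 2.30 CPM in knockout cells and 169 ± 1.53 CPM in their line without 4-OHT, 165 ± 1.66 CPM in C91A mutant cells and 88.9 ± 4.57 CPM in their line without 4-OHT, 153 ± 11.7 CPM in double knockout cells and 178 ± 6.64 CPM in wild-type cells (SD, n = 3 each). These counts cover the whole gene, so they do not show whether a deleted part was missing from the transcript and do not check the genotype labels. The lower Bap1 level of the C91A line without 4-OHT enters every comparison that uses that line, and its part was not tested.

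Most listed genes were expressed at low to moderate levels. In wild-type cells 11 of the 35 tested members averaged under 1 CPM and 13 averaged at least 10 CPM. The authors' RPKM values, which are adjusted for gene length, allow genes to be compared with each other. On that scale Bst2, which tethers budding virions to the cell surface, and Ifitm3, which blocks virus entry, stood highest. Bst2 averaged 357 RPKM in the C91A line without 4-OHT and 262 RPKM in wild-type cells, and Ifitm3 averaged 333 and 254 RPKM in the same groups. The median over the 39 members' mean RPKM was 2.60 in the C91A line without 4-OHT, 2.31 in C91A mutant cells, 0.212 in knockout cells, 0.421 in the knockout line without 4-OHT, 0.677 in double knockout cells and 0.736 in wild-type cells.

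**Figure D1:**
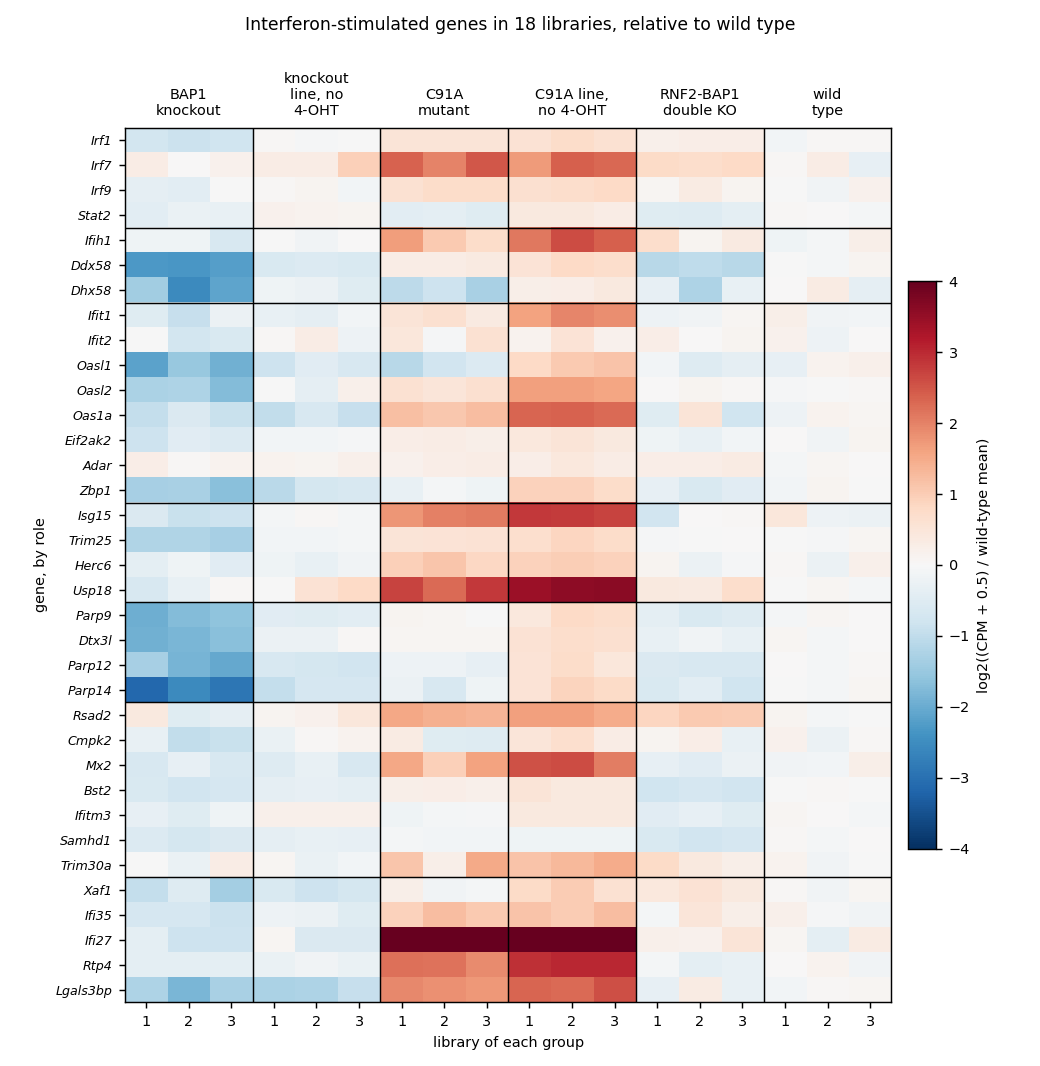
Level of each of the 35 tested genes (rows, grouped by role) in the 18 libraries (columns, 3 per group), as log2 of CPM plus 0.5 relative to the mean of the wild-type libraries (colours, ends at 4 and -4). The 6 libraries of the C91A line are red for most genes and the 3 knockout libraries are blue for most genes.

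The listed genes stood higher in the C91A line without 4-OHT than in wild-type cells and in the knockout line without 4-OHT. Without the drug, 31 of the 35 tested members were higher than in wild-type cells and 1 was lower, that is 91.4% of members called, where 27.6% of all genes tested were called, 13.4% higher and 14.2% lower. Of these, 18 members were at least 2-fold higher, as were 1.36% of all genes. The median change of the members was 1.02 on the log2 scale. For 32 of the 35 members all 3 libraries of the C91A line without 4-OHT lay above all 3 wild-type libraries. The share of all genes separated in this way was not computed. The raised level of this line was known when the genes were listed, so these counts describe it and are no independent evidence of its direction. The 1 lower gene was Samhd1, a nuclease that depletes deoxynucleotides, at -0.17 (SE 0.05, adjusted p = 0.011), and without wild-type replicate 1 it stood at -0.15 (adjusted p = 0.067). This group had the highest mean of the 6 groups for 31 of the 35 members, and C91A mutant cells had the highest for another 3, Herc6, Ifit2 and Irf7. These ranks were not counted over all genes.

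Filtering on low counts bears on 5 of these genes. Ifih1, Ifit1, Mx2, Trim30a and Rtp4 passed the filter only through the C91A line and had to differ there. All 5 are among the 18 members that were at least 2-fold higher than in wild-type cells. They are also among the 31 members with their highest mean in the C91A line without 4-OHT. Among the 30 members that also passed in the other 12 libraries, a count added after the values were seen, 26 were higher and 1 lower in the C91A line without 4-OHT than in wild-type cells. The median change of these 30 was 0.75, against 1.02 over all 35. Ifit3, Uba7, which encodes the activating enzyme of ISG15, Mx1 and Ifi44 failed the filter, with at most 5, 15, 2 and 3 counts in any library.

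**Figure D2:**
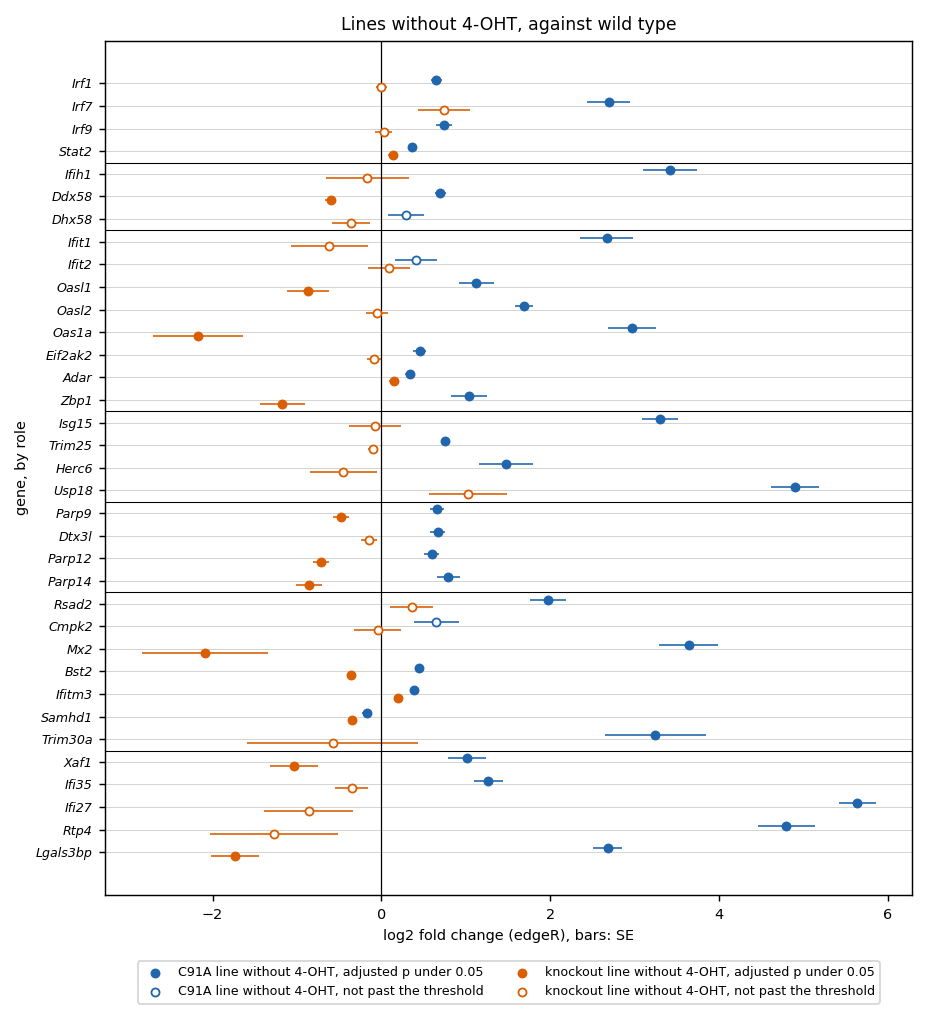
Log2 fold change of each tested member (rows, by role) in the C91A line without 4-OHT (blue) and in the knockout line without 4-OHT (orange), each against wild-type cells, with bars for the SE and filled points for adjusted p under 0.05. The blue points lie right of 0 for all members but Samhd1, and the orange points lie left of 0 for 27 members and right of 0 for 8.

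All 4 transcription factors of the list were higher in the C91A line without 4-OHT. Irf7, which drives interferon genes and is itself induced by interferon, had 3.66, 6.21 and 5.80 CPM in the C91A line without 4-OHT, against 0.825, 1.08 and 0.524 CPM in wild-type cells. The groups did not overlap, and the change was 2.69 (SE 0.25, adjusted p = 3.3e-11). The 3 other factors changed less. Irf9, the DNA-binding part of ISGF3, had 19.0, 19.9 and 21.2 CPM against 11.9, 10.7 and 13.4 CPM in wild-type cells, a change of 0.74 (SE 0.10, adjusted p = 1.6e-07). Irf1 had 42.5, 47.8 and 43.4 CPM against 26.5, 29.2 and 29.6 CPM in wild-type cells, a change of 0.65 (SE 0.07, adjusted p = 2.4e-10). Stat2, which encodes the activating part of ISGF3, had 87.3, 89.0 and 83.1 CPM against 69.9, 67.8 and 64.0 CPM in wild-type cells, a change of 0.36 (SE 0.05, adjusted p = 9.7e-07). In all 3 the lowest library of the C91A line lay above the highest wild-type library.

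Of the 3 RNA sensors, 2 were higher. Ifih1, which encodes MDA5, a sensor of long double-stranded RNA, had 3.26, 4.76 and 4.04 CPM in the C91A line without 4-OHT, against 0.275, 0.316 and 0.524 CPM in wild-type cells. The groups were far apart, with a change of 3.42 (SE 0.32, adjusted p = 3.7e-11). Ddx58, which encodes RIG-I, was already well expressed in wild-type cells. It had 65.6, 79.0 and 72.9 CPM against 44.0, 42.3 and 48.4 CPM in wild-type cells, a change of 0.70 (SE 0.06, adjusted p = 1.5e-11). Dhx58, which encodes the related protein LGP2, did not pass the test, at 0.29 (SE 0.21, adjusted p = 0.34), and its libraries overlapped: 3.80, 3.91 and 4.30 CPM against 3.24, 4.15 and 2.38 CPM in wild-type cells.

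Among the RNA-binding and translation effectors, 7 of 8 tested members were higher. Oas1a, whose product makes the signal that activates RNase L, had 5.29, 5.44 and 5.08 CPM in the C91A line without 4-OHT, against 0.495, 0.767 and 0.715 CPM in wild-type cells. Every library of the line was above every wild-type library, and the change was 2.97 (SE 0.28, adjusted p = 5.4e-11). Ifit1, which binds viral RNA ends, had 2.37, 3.15 and 2.93 CPM against 0.605, 0.361 and 0.381 CPM in wild-type cells, a change of 2.67 (SE 0.31, adjusted p = 8.5e-09). The OAS-like genes Oasl2 and Oasl1 rose less. Oasl2 had 21.7, 21.4 and 20.8 CPM against 6.43, 6.59 and 6.77 CPM in wild-type cells, a change of 1.69 (SE 0.11, adjusted p = 6.6e-16). Oasl1 had 4.00, 4.85 and 5.14 CPM against 1.54, 2.35 and 2.48 CPM in wild-type cells, a change of 1.13 (SE 0.20, adjusted p = 4.2e-05). Neither pair of groups overlapped. The other called genes of this role were Zbp1, a sensor of Z-form nucleic acid, Eif2ak2, the kinase PKR, and the RNA editing enzyme gene Adar; Ifit2 did not pass the test.

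The ISG15 system held some of the steepest differences. Isg15 had 9.63, 9.40 and 8.73 CPM in the C91A line without 4-OHT, against 1.43, 0.722 and 0.715 CPM in wild-type cells. The change was 3.30 (SE 0.21, adjusted p = 4.5e-16), and the lowest library of the line stood several-fold above the highest wild-type library. Usp18, whose product removes ISG15 from proteins and dampens receptor signalling, had 7.73, 8.72 and 8.92 CPM against 0.275, 0.316 and 0.238 CPM in wild-type cells. Its change was 4.90 (SE 0.28, adjusted p = 1.9e-17). Herc6, a ligase for ISG15 in mouse, had 1.424, 1.53 and 1.43 CPM against 0.550, 0.361 and 0.667 CPM in wild-type cells, a change of 1.48 (SE 0.32, adjusted p = 4.3e-04). Trim25, a ubiquitin ligase that acts on RIG-I, was abundant in both groups. It had 187, 212 and 197 CPM against 116, 113 and 124 CPM in wild-type cells, a change of 0.76 (SE 0.05, adjusted p = 4.2e-16).

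The ADP-ribosylation group, Parp9, Dtx3l, Parp12 and Parp14, moved by similar and smaller amounts. PARP9 and the ubiquitin ligase DTX3L form a complex, PARP12 and PARP14 attach single ADP-ribose units, and all are induced by interferon. Parp14 averaged 10.8 ± 1.35 CPM in the C91A line without 4-OHT and 6.28 ± 0.333 CPM in wild-type cells (SD, n = 3 each). All 3 libraries of the line were above the wild type, with a change of 0.79 (SE 0.13, adjusted p = 1.3e-05). The changes of Dtx3l, Parp9 and Parp12 were 0.67 (SE 0.09), 0.66 (SE 0.08) and 0.60 (SE 0.09), all called. On chromosome 16 Dtx3l and Parp9 overlap on opposite strands and share 458 exonic bases, 8% of the exonic length of Dtx3l and 9.4% of that of Parp9. Whether the counting used strand is not given, so their reads may be shared in part.

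Among the antiviral restriction factors, 5 of 7 tested members were higher and Samhd1 was lower. Mx2, an interferon-induced GTPase, had 4.14, 4.25 and 2.73 CPM in the C91A line without 4-OHT, against 0.220, 0.226 and 0.429 CPM in wild-type cells. The change was 3.64 (SE 0.35, adjusted p = 6.0e-11), with no overlap of the groups. Trim30a, a TRIM family gene, had 0.814, 0.978 and 1.17 CPM against 0.165, 0.0451 and 0.0953 CPM in wild-type cells, a change of 3.24 (SE 0.60, adjusted p = 5.2e-05). Rsad2, which encodes viperin, had 4.61, 4.59 and 4.10 CPM against 1.26, 1.04 and 1.10 CPM in wild-type cells, a change of 1.97 (SE 0.21, adjusted p = 1.1e-09). Both were higher in every library of the line. Bst2, already abundant, had 302, 279 and 278 CPM against 209.7, 216 and 208 CPM in wild-type cells, a change of 0.44 (SE 0.04, adjusted p = 2.1e-10). Ifitm3 stood at 0.39 (SE 0.05, adjusted p = 1.7e-07). Cmpk2, the listed gene nearest to Rsad2 at a distance of 12.7 kb, did not pass the test.

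All 5 tested genes of the last role, interferon-induced genes of other functions, were higher, and they include the largest change of the list. Ifi27 had 22.8, 19.6 and 19.7 CPM in the C91A line without 4-OHT, against 0.440, 0.181 and 0.620 CPM in wild-type cells. The change was 5.64 (SE 0.22, adjusted p = 2.2e-23). Rtp4, which encodes a receptor transport protein, had 4.48, 4.80 and 4.88 CPM against 0.165, 0.226 and 0.0953 CPM in wild-type cells, a change of 4.80 (SE 0.33, adjusted p = 1.3e-14). Both genes were near the detection limit in wild-type cells and clearly expressed in the line. Lgals3bp, a secreted glycoprotein gene, had 10.8, 10.4 and 12.9 CPM against 1.59, 1.81 and 1.86 CPM in wild-type cells, a change of 2.68 (SE 0.17, adjusted p = 2.7e-16). Ifi35 changed by 1.27 (SE 0.17) and Xaf1, a gene linked to apoptosis, by 1.02 (SE 0.23), both called.

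The C91A line without 4-OHT was likewise above the other line without 4-OHT. Against the knockout line without 4-OHT, 34 of 35 members were higher and none was lower, where 34.9% of all genes were called, 17.6% higher and 17.3% lower. At least 2-fold higher were 22 members, as were 3.13% of all genes. Ifih1, Ifit1, Mx2, Trim30a and Rtp4, which passed the filter only through the C91A line, are among these 22. The raised level of the C91A line was known when the genes were listed, so these counts are no independent evidence of it. The median of the members was 1.62. Among the 30 members that passed the filter without the C91A line, 29 were higher, with a median of 1.31. By contrast, the knockout line without 4-OHT was not above wild-type cells. In that comparison 3 members were higher and 12 lower, 42.9% of members, where 39.3% of all genes were called, 18.5% higher and 20.8% lower, so the members' share was near the background. The members' median in this comparison was -0.35, with 27 changes below 0 and 8 above, called or not. At least 2-fold lower were 5 members, as were 2.41% of all genes. Lgals3bp fell to 0.440, 0.467 and 0.686 CPM in the knockout line without 4-OHT, against 1.59, 1.81 and 1.86 CPM in wild-type cells, a change of -1.74 (SE 0.28, adjusted p = 3.4e-06). Oas1a fell to 0.0879, 0.233 and 0.105 CPM, against 0.495, 0.767 and 0.715 CPM in wild-type cells, a change of -2.17 (SE 0.53, adjusted p = 0.0011). In both genes every library of the knockout line lay below every wild-type library. These 2 comparisons and that of the C91A line with wild type share libraries.

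**Figure D3:**
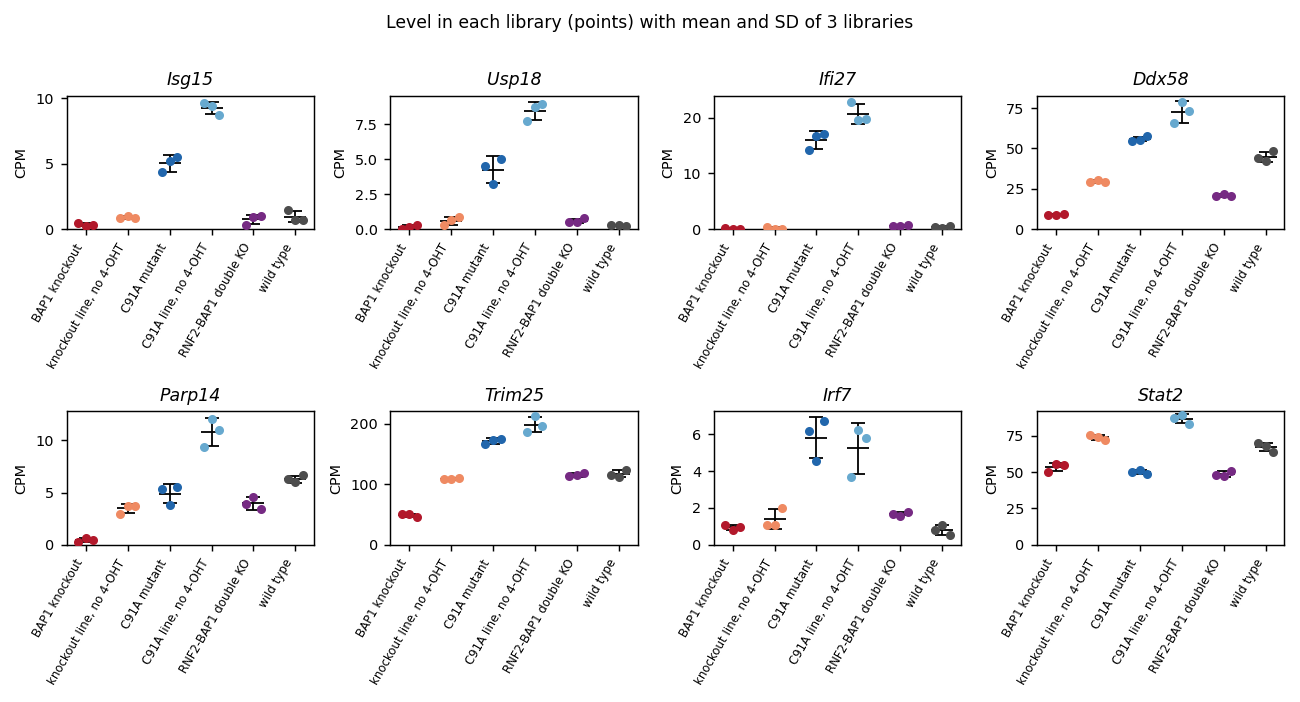
CPM of 8 members in each library (points) with the mean and SD of 3 libraries (bars), for knockout cells, the knockout line without 4-OHT, C91A mutant cells, the C91A line without 4-OHT, double knockout cells and wild-type cells. Isg15, Usp18 and Ifi27 are high in both groups of the C91A line and low in the other 4 groups, while Ddx58, Parp14 and Trim25 are lowest in knockout cells and Stat2 is lowest in double knockout and C91A mutant cells.

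Many of the listed genes were lower in BAP1 knockout cells. Against the knockout line without 4-OHT, 20 of the 35 members were lower and none was higher, 57.1% of members, where 61.6% of all genes were called in either direction. At least 2-fold lower were 12 members, as were 10.5% of all genes. The share of members called was thus near the background, while their direction was not that of all genes, which split into 31.3% higher and 30.3% lower. The median change of the members was -0.73 over the 34 with a usable fold, and for 21 members the knockout libraries all lay below the libraries of their line. How many of all genes were separated in this way was not computed. Knockout cells had the lowest mean of the 6 groups for 27 of the 35 members, and this rank was not counted over all genes. In the same cells the 10 embryonic stem cell markers summed to 3865 to 3977 CPM, against 4751 to 4852 CPM in the line without 4-OHT, with 8 lower and 2 higher. The part of this difference in the members' values was not tested, here or in the comparisons that follow.

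The deepest called fall was that of Parp14, an ADP-ribosyltransferase. It had 0.270, 0.661 and 0.421 CPM in knockout cells, against 2.99, 3.73 and 3.75 CPM in the line without 4-OHT. The change was -3.01 (SE 0.31, adjusted p = 3.8e-11), and the groups were far apart. Oasl1 had 0.0900, 0.396 and 0.180 CPM against 0.967, 1.40 and 1.16 CPM in the line without 4-OHT, a change of -2.52 (SE 0.48, adjusted p = 1.8e-05). Dhx58 had 0.900, 0.132 and 0.361 CPM against 2.77, 2.66 and 2.16 CPM in the line without 4-OHT, a change of -2.38 (SE 0.38, adjusted p = 7.7e-07). The knockout libraries of both genes were below all control libraries though they differed among themselves. Dtx3l had 3.06, 3.30 and 3.73 CPM against 10.9, 11.1 and 13.4 CPM in the line without 4-OHT, a change of -1.78 (SE 0.14, adjusted p = 7.9e-15).

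The fall reached genes whose counts were high and whose libraries were tight. Ddx58 had 8.82, 8.59 and 9.33 CPM in knockout cells, against 29.5, 30.3 and 29.0 CPM in the line without 4-OHT, a change of -1.72 (SE 0.09, adjusted p = 2.6e-19). Trim25 had 51.0, 50.5 and 46.5 CPM against 108, 109 and 111 CPM in the line without 4-OHT, a change of -1.16 (SE 0.06, adjusted p = 6.8e-21). In both, the highest knockout library was under the lowest control library by a wide margin. Oasl2, Parp9 and Parp12 changed by -1.61 (SE 0.18), -1.36 (SE 0.12) and -1.10 (SE 0.13), and Irf1, Stat2 and Bst2 by -0.81 (SE 0.08), -0.47 (SE 0.06) and -0.31 (SE 0.05), all called. Ifitm3 changed by -0.51 (SE 0.05). By role, all 4 ADP-ribosylation genes, 3 of 4 tested genes of the ISG15 system, 4 of 8 effectors, 4 of 7 restriction factors, 2 of 3 sensors, 2 of 4 transcription factors and 1 of 5 other genes were lower. That 1 was Ifi35, at -0.60 (SE 0.26, adjusted p = 0.041). It lost its call without knockout replicate 1, 2 or 3, at -0.65 (adjusted p = 0.060), -0.63 (adjusted p = 0.053) and -0.48 (adjusted p = 0.19). It also lost it without control replicate 1 or 2, at -0.53 (adjusted p = 0.11) and -0.55 (adjusted p = 0.092), with no filter and with DESeq2.

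For the scarcest members the knockout rested on few counts. Isg15 had 0.450, 0.264 and 0.301 CPM in knockout cells, against 0.835, 0.980 and 0.844 CPM in the line without 4-OHT, a change of -1.36 (SE 0.45, adjusted p = 0.0084). Without knockout replicate 3 this was -1.23 (adjusted p = 0.061). Usp18 had 0, 0.132 and 0.301 CPM against 0.264, 0.653 and 0.844 CPM in the line without 4-OHT, a change of -1.71 (SE 0.61, adjusted p = 0.014). It was -1.19 (adjusted p = 0.098) without knockout replicate 1 and -1.38 (adjusted p = 0.074) without control replicate 3. Rtp4 had 0 counts in all 3 knockout libraries, against 4 counts in the line without 4-OHT and 10 in wild-type cells. With a floor of 3 counts over the group it was at least 1.92-fold lower in knockout than in wild-type cells, and no fold is given against its line. Lgals3bp did not pass the test against its line, at -0.50 (SE 0.47, adjusted p = 0.36).

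Against wild-type cells, knockout cells were lower for 25 members and higher for 1, Adar, 74.3% of members, where 62.9% of all genes were called, 30.9% higher and 31.9% lower. By the fitted changes 17 members were at least 2-fold lower, as were 11.2% of all genes. One of the 17 was Rtp4, whose bound of 1.92-fold does not reach that size, which leaves 16. The median was -1.10 with Rtp4 at its bound. Oasl1 stood at -3.38 (SE 0.43, adjusted p = 6.1e-09), Parp14 at -3.86 (SE 0.28, adjusted p = 1.2e-15) and Ddx58 at -2.32 (SE 0.09, adjusted p = 2.1e-24). Ifi27, with 2 counts in knockout and 25 in wild-type libraries, had a ratio of 0.139 (95% counting interval 0.016 to 0.557), and its fitted change lost its call without knockout replicate 3, at -1.86 (adjusted p = 0.093).

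**Figure D4:**
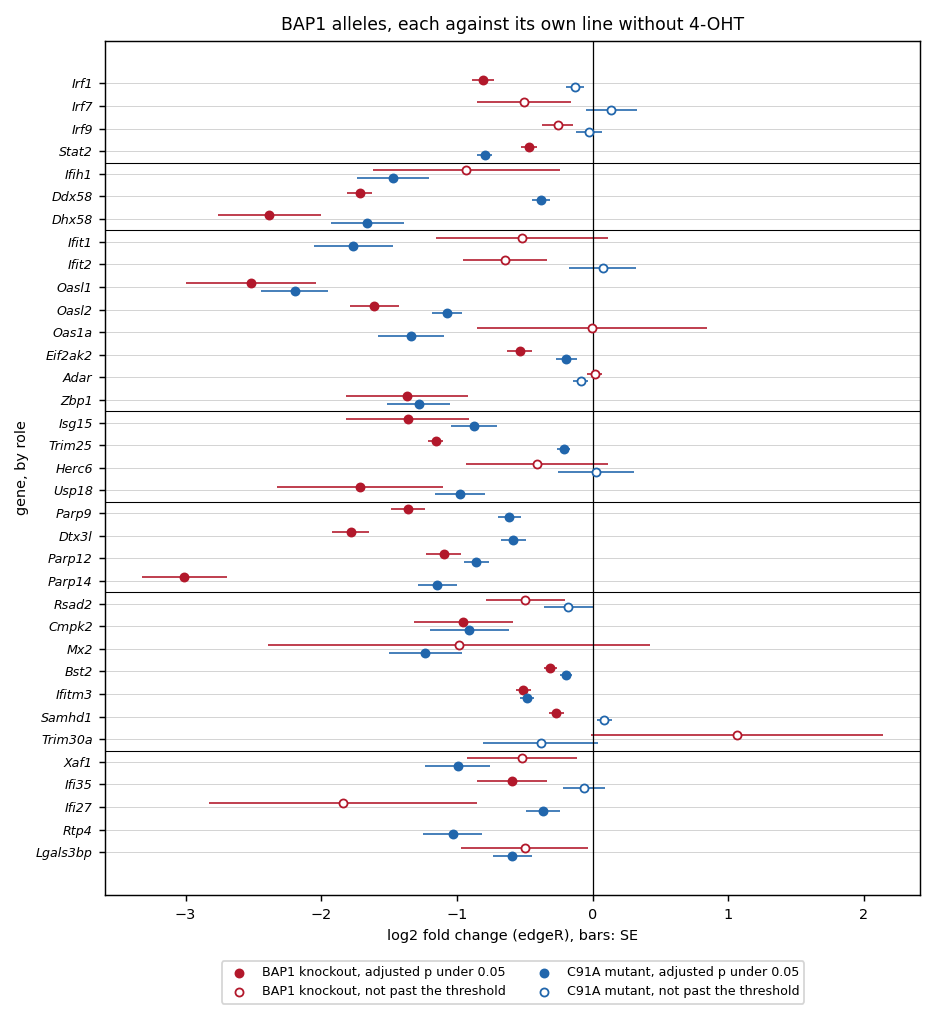
Log2 fold change of each tested member (rows, by role) in BAP1 knockout cells (red) and C91A mutant cells (blue), each against its own line without 4-OHT, with bars for the SE and filled points for adjusted p under 0.05. Called points of both alleles lie left of 0, and Parp14, Ddx58, Dtx3l and Trim25 lie further left in knockout cells; Rtp4 is left out for the knockout, where it had 0 counts.

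C91A mutant cells were also below their own line without 4-OHT. Of the 35 members, 25 were lower and none was higher, 71.4% of members, where 55% of all genes were called, 28.6% higher and 26.4% lower. At least 2-fold lower were 10 members, as were 6.36% of all genes. The median was -0.59. Among the 30 members that passed the filter without the C91A line, 21 were lower, with a median of -0.54. Ifit1, Ifih1, Mx2 and Rtp4 are among the 10 members at least 2-fold lower but not among these 30. The raised level of these control libraries was known when the genes were listed, so these counts are no independent evidence of a fall. The stem cell markers summed to 3107 to 3159 CPM in C91A mutant cells and 4030 to 4367 CPM in the line without 4-OHT, with 9 of 10 lower. Oasl1 fell most, to 0.709, 1.02 and 1.26 CPM in C91A mutant cells, against 4.00, 4.85 and 5.14 CPM in the line without 4-OHT, a change of -2.19 (SE 0.25, adjusted p = 5.1e-10). Ifit1 had 0.851, 0.955 and 0.712 CPM against 2.37, 3.15 and 2.93 CPM in the line without 4-OHT, a change of -1.76 (SE 0.29, adjusted p = 2.2e-06). Neither gene's groups overlapped. Dhx58 had 1.28, 1.57 and 0.986 CPM against 3.80, 3.91 and 4.30 CPM in the line without 4-OHT, a change of -1.66 (SE 0.27, adjusted p = 1.3e-06). Ifih1 had 2.27, 1.30 and 0.931 CPM against 3.26, 4.76 and 4.04 CPM in the line without 4-OHT, a change of -1.47 (SE 0.27, adjusted p = 8.8e-06). The 3 mutant libraries lay below the 3 control libraries in both genes.

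The genes that stood furthest above wild type in the line without 4-OHT fell by differing amounts. Ifi27, the furthest, had 14.1, 16.7 and 17.04 CPM in C91A mutant cells, against 22.8, 19.6 and 19.7 CPM in the line without 4-OHT, a change of -0.37 (SE 0.13, adjusted p = 0.013). It lost its call without C91A mutant replicate 1, at -0.29 (adjusted p = 0.079), and without control replicate 1, at -0.30 (adjusted p = 0.075). Isg15 had 4.33, 5.18 and 5.53 CPM in C91A mutant cells, against 9.63, 9.40 and 8.73 CPM in the line without 4-OHT, a change of -0.88 (SE 0.17, adjusted p = 2.3e-05). Usp18 had 4.54, 3.21 and 5.04 CPM against 7.73, 8.72 and 8.92 CPM in the line without 4-OHT, a change of -0.98 (SE 0.18, adjusted p = 1.9e-05). Oas1a, Mx2 and Rtp4 changed by -1.34 (SE 0.24), -1.23 (SE 0.27) and -1.03 (SE 0.22), all called. Of these, Mx2 and Rtp4 passed the filter only through the C91A line. Irf7 averaged 5.81 ± 1.10 CPM in C91A mutant cells and 5.22 ± 1.37 CPM in the line without 4-OHT (SD, n = 3 each), and these libraries overlapped. Irf9, Herc6, Rsad2 and Ifi35 also did not pass the test.

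Most of the tested members were above wild-type cells in C91A mutant cells. These include members that did not pass the test against their own line, such as Irf7, Irf9 and Rsad2. Against wild type, C91A mutant cells were higher for 22 members and lower for 5, 77.1% of members, where 58.3% of all genes were called, 29.9% higher and 28.5% lower. At least 2-fold higher were 13 members and at least 2-fold lower 2, as were 5.61% and 7.09% of all genes. Among the 30 members that passed the filter without the C91A line, 17 were higher and 5 lower, with a median of 0.29, against 0.52 over all 35. Of the 13 members at least 2-fold higher, Ifih1, Mx2, Trim30a and Rtp4 are not among these 30. The highest of the 35 were Ifi27 at 5.27 (SE 0.23, adjusted p = 9.4e-23), Usp18 at 3.92 (SE 0.32, adjusted p = 6.3e-14) and Rtp4 at 3.77 (SE 0.38, adjusted p = 3.5e-11). Isg15 stood at 2.42 (SE 0.23, adjusted p = 6.1e-12), with 4.33, 5.18 and 5.53 CPM in C91A mutant cells, against 1.43, 0.722 and 0.715 CPM in wild-type cells. These comparisons share libraries with those above. For 21 of the 35 members the order of mean levels was the same: the C91A line without 4-OHT, then C91A mutant cells, then all 4 other groups. The members that passed the filter only through the C91A line are all among these 21. The raised level of the line was known when the genes were listed. The share of all genes in this order was not computed. Dhx58, Oasl1 and Stat2 were among the lower genes, at -1.37 (SE 0.27), -1.07 (SE 0.27) and -0.43 (SE 0.06). Ifit1 among the higher genes and Parp14 among the lower lost their calls with DESeq2, at 0.91 (adjusted p = 0.11) and -0.36 (adjusted p = 0.11).

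The change in knockout cells was set against that in C91A mutant cells by testing the difference of the 2 log2 fold changes. It passed for 9 of 35 members, 25.7%, where 25.9% of all genes passed, a share near the background. In 8 of the 9 the knockout value was the lower, as it was in 13.8% of all genes, against 12.2% in which it was the higher. For 3 members the knockout value was lower by at least 2-fold, as it was in 2.66% of all genes. Parp14 stood at -3.01 in knockout cells and -1.14 in C91A mutant cells, a difference of -1.86 (SE 0.38, adjusted p = 2.1e-04). Ddx58 stood at -1.72 in knockout cells and -0.38 in C91A mutant cells, a difference of -1.34 (SE 0.12, adjusted p = 9.6e-12). Dtx3l and Trim25 had differences of -1.20 (SE 0.17) and -0.94 (SE 0.07). Stat2 alone went the other way, at -0.47 in knockout cells and -0.80 in C91A mutant cells. Its difference was 0.33 (SE 0.08, adjusted p = 0.0022).

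In cells that lacked RNF2 as well as BAP1, the listed genes stood higher than in BAP1 knockout cells. In double knockout cells 25 of the 35 members were higher than in knockout cells and none was lower, 71.4% of members, where 63.2% of all genes were called, 32.6% higher and 30.6% lower. At least 2-fold higher were 20 members, as were 13% of all genes. The median was 1.22 and all 3 double knockout libraries lay above all 3 knockout libraries for 24 members. A share of all genes for this separation was not computed. The stem cell markers summed to 4657 to 4848 CPM in double knockout cells and 3865 to 3977 CPM in knockout cells, with 7 of 10 higher and 1 lower. This comparison shares the knockout libraries with those above. Rnf2 averaged 74.5 ± 3.52 CPM in double knockout cells and 123 ± 7.61 CPM in knockout cells (SD, n = 3 each).

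Parp14 had 3.92, 4.55 and 3.39 CPM in double knockout cells, against 0.270, 0.661 and 0.421 CPM in knockout cells, a change of 3.17 (SE 0.31, adjusted p = 8.1e-12). Oasl1 had 1.90, 1.30 and 1.51 CPM against 0.0900, 0.396 and 0.180 CPM in knockout cells, a change of 2.94 (SE 0.46, adjusted p = 6.2e-07). Both genes were separated without overlap. Ifi27, with 34 counts in double knockout and 2 in knockout libraries, had a ratio of 11.2 (95% counting interval 2.87 to 96.2). Xaf1 had 2.22, 2.53 and 2.17 CPM against 0.540, 0.925 and 0.301 CPM in knockout cells, a change of 2.13 (SE 0.34, adjusted p = 7.4e-07). Lgals3bp had 1.31, 2.31 and 1.35 CPM against 0.450, 0.132 and 0.421 CPM in knockout cells, a change of 2.10 (SE 0.38, adjusted p = 7.7e-06). In these 2 genes too every double knockout library was the higher. The well-counted genes Trim25 and Ddx58 changed by 1.24 (SE 0.06) and 1.22 (SE 0.10), Rsad2 by 1.40 (SE 0.27) and Irf1 by 1.06 (SE 0.08), all called. Stat2 and Bst2 did not pass the test, at -0.13 (SE 0.06, adjusted p = 0.064) and -0.07 (SE 0.05, adjusted p = 0.21); Stat2 was called lower without knockout replicate 1, at -0.17 (adjusted p = 0.028), and without double knockout replicate 3, at -0.17 (adjusted p = 0.035).

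Against wild-type cells the double knockout showed no common direction. Of the 35 members, 6 were higher and 11 lower, 48.6% of members, where 53.3% of all genes were called, 26.2% higher and 27.1% lower, and the median was -0.14. At least 2-fold higher were 3 members and at least 2-fold lower 1, as were 6.39% and 2.81% of all genes. Rsad2 was among the higher genes, with 2.48, 2.89 and 2.78 CPM in double knockout cells, against 1.26, 1.04 and 1.10 CPM in wild-type cells, a change of 1.27 (SE 0.23, adjusted p = 1.0e-05). Ddx58 was the lowest of the called genes, with 20.4, 22.03 and 20.4 CPM against 44.0, 42.3 and 48.4 CPM in wild-type cells, a change of -1.10 (SE 0.07, adjusted p = 8.6e-17). The groups overlapped in neither gene. Bst2 stood at -0.75 (SE 0.05, adjusted p = 1.2e-17) and Parp14 at -0.69 (SE 0.16, adjusted p = 2.4e-04). Trim25 averaged 116 ± 2.61 CPM in double knockout cells and 118 ± 6.08 CPM in wild-type cells, and Isg15 averaged 0.749 ± 0.366 and 0.956 ± 0.411 CPM in the same groups (SD, n = 3 each), with overlapping libraries in both.

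Other genes of the pathway were read from lists of 95 further genes. None of the 10 type I and III interferon genes on the list passed the filter, and they summed to at most 0.196 CPM in any library. Receptor, JAK-STAT and IRF genes split in the C91A line without 4-OHT, where 4 of 18 were higher and 4 lower than in wild-type cells. Among nucleic acid sensors and adaptors 2 of 16 tested were higher and 1 lower, among negative regulators of the pathway 4 of 19 were higher and 1 lower, and among genes of MHC class I and antigen processing 5 of 12 were higher and 2 lower. Their shares called may be read beside the 27.6% of all genes.

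Of the 8 tested GTPases induced by interferon gamma, 6 were higher in that line and none was lower. Irgm1, which acts on vacuoles that hold pathogens, averaged 26.1 ± 1.69 CPM in the C91A line without 4-OHT and 4.11 ± 0.494 CPM in wild-type cells (SD, n = 3 each), a change of 2.67 (SE 0.12, adjusted p = 6.7e-22). Irgm2 and Gbp3 changed by 1.68 (SE 0.21) and 1.64 (SE 0.21). In C91A mutant cells, 2 of the 8 were higher and 2 lower than in their line, a share near the 55% of all genes called. Gbp2, a guanylate-binding protein gene, averaged 63.8 ± 4.31 CPM in C91A mutant cells and 23.3 ± 1.89 CPM in the line without 4-OHT (SD, n = 3 each), a change of 1.45 (SE 0.08, adjusted p = 9.6e-19). Ikbke, a kinase that activates IRF3, changed by 1.32 (SE 0.24) in the same comparison. Cgas, the gene of the DNA sensor cGAS, averaged 0.599 ± 0.300 CPM in C91A mutant cells and 1.24 ± 0.163 CPM in the line without 4-OHT (SD, n = 3 each), a change of -1.09 (SE 0.35, adjusted p = 0.0079). Without C91A mutant replicate 3 this was -0.77 (adjusted p = 0.087).

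In knockout cells the sensors, adaptors and GTPases held more genes that were lower than genes that were higher. Of 16 tested sensors and adaptors, 11 were lower and 3 higher than in the line without 4-OHT, and of 8 GTPases 5 were lower and none higher, where 61.6% of all genes were called, 31.3% higher and 30.3% lower. The share of GTPases called was thus near the background. Sting1, the adaptor of the DNA sensor cGAS, averaged 0.164 ± 0.183 CPM in knockout cells and 0.992 ± 0.163 CPM in the line without 4-OHT (SD, n = 3 each), a change of -2.28 (SE 0.53, adjusted p = 2.9e-04). Irgm2 changed by -2.89 (SE 0.55) and Ticam2, an adaptor of TLR4, by -2.71 (SE 0.45). Receptor and JAK-STAT genes split into 5 higher and 6 lower of 18, negative regulators into 3 and 9 of 19 and MHC class I genes into 4 and 7 of 12. In double knockout against knockout cells, 9 of 16 sensors and adaptors were higher and 1 lower, and 6 of 8 GTPases were higher and 1 lower, where 63.2% of all genes were called, 32.6% higher and 30.6% lower. The share of sensors and adaptors called was near the background.

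**Figure D5:**
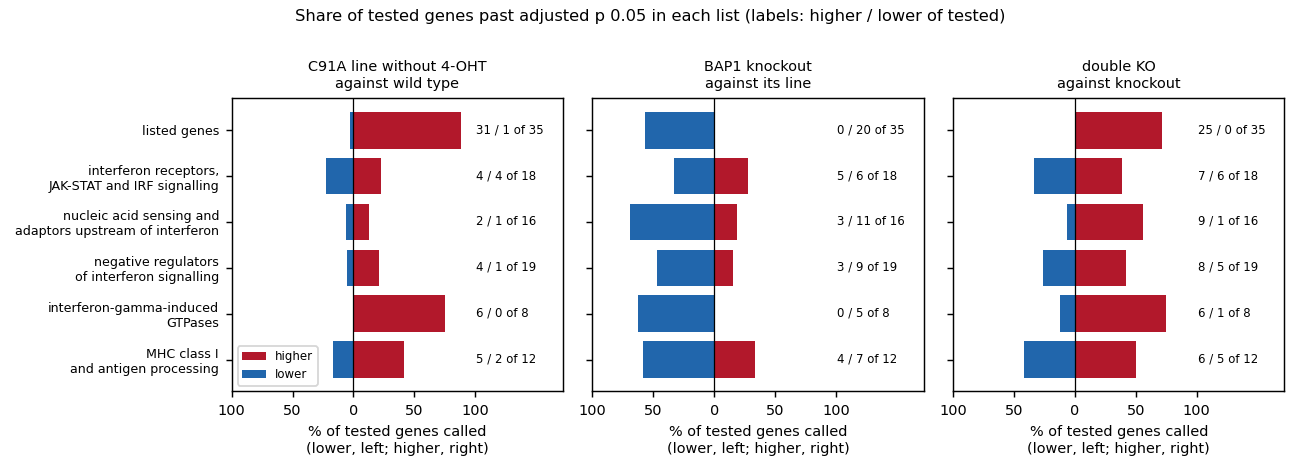
Share of tested genes called higher (red, right of 0) or lower (blue, left of 0) in the listed interferon-stimulated genes and in 5 lists of other pathway genes, for the C91A line without 4-OHT against wild-type cells, BAP1 knockout cells against their line without 4-OHT and double knockout against knockout cells. Numbers give genes higher and lower of those tested; in the left panel the listed genes (31 and 1 of 35) and the GTPases (6 and 0 of 8) extend furthest to the right.

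Markers of other cells moved with some groups. The 12 fibroblast markers, which could come from feeder cells, summed to 1655 to 1767 CPM in the C91A line without 4-OHT and 1552 to 1650 CPM in wild-type cells, of which Fn1 made up most. Of 11 tested, 2 were higher and 7 lower in the C91A line without 4-OHT, and Lum was at or near 0 in all groups. The same markers summed to 3117 to 3317 CPM in knockout cells and 1895 to 2030 CPM in their line without 4-OHT. The 10 immune markers summed to 62.9 to 70.8 CPM in the C91A line without 4-OHT and 45.0 to 54.3 CPM in wild-type cells, nearly all from Cd68. Of 5 tested, 3 were higher in the C91A line without 4-OHT, 2 of them at least 2-fold, and none was lower. The immune markers summed to 137 to 150.1 CPM in knockout cells and 59.1 to 61.1 CPM in their line, with 2 of 5 tested higher and 2 lower. In C91A mutant cells the fibroblast markers summed to 2119 to 2162 CPM and the immune markers to 131 to 144 CPM, both above their line without 4-OHT. In double knockout cells the fibroblast markers summed to 1937 to 2130 CPM and the immune markers to 41.3 to 49.0 CPM, both below knockout cells. Ptprc, Adgre1 and Tyrobp, which define leukocytes, macrophages and myeloid cells, were at or near 0 in every group. The 7 endothelial markers summed to 155.8 to 159.98 CPM in the C91A line without 4-OHT and 111 to 125 CPM in wild-type cells, and 5 of 6 tested were higher. They summed to at most 107 CPM in C91A mutant cells. The 10 endoderm markers summed to 26.9 to 28.5 CPM in the C91A line without 4-OHT and 51.6 to 52.5 CPM in wild-type cells. They summed to 74.9 to 81.9 CPM in double knockout cells and 22.3 to 25.0 CPM in knockout cells. The part of other cell types in the results above was not tested.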

How the data were processed

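Polyadenylated RNA was sequenced on a HiSeq4000 as single reads, per the labels' protocols. Reads were aligned with GSNAP to GRCm38, per the submitters' processing notes, which state no versions here. Each deposited file gave, per Entrez gene, the authors' count of reads and the authors' size-factor-adjusted RPKM. Counts were tested; RPKM values served only to compare levels between genes and to recover the authors' size factors. Replicates were numbered within a group in the order of deposit, which pairs no libraries. Genes were filtered with filterByExpr, scaled by TMM and fitted with 1 mean per group over all 18 libraries with edgeR 4.0.16 (R 4.3.3). Its quasi-likelihood test was 2-sided with Benjamini-Hochberg adjustment over 16875 genes. The common dispersion corresponded to a coefficient of variation of 4.47% between replicates, so small changes could pass. Within each group, every 2 libraries differed in their counts beyond sampling noise (chi-square per degree of freedom 1.77 to 5.78). The scripts were tested on simulated data. Intervals and floors cover counting error only. The 95% intervals on ratios are exact.

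The members, the other gene lists and the naming rule were chosen with earlier results of these data known. Under that rule full values are given for up to 4 called members per role in the C91A line without 4-OHT against wild type, and for the 4 lowest and 4 highest called members of the other main comparisons, 28 members in all; 8 other pathway genes were taken by size of change. Samhd1, Eif2ak2, Adar, Zbp1, Ifitm3, Ifit2 and Cmpk2 were named after their values were seen. Alternatives were RLE or the authors' size factors, no filter, a mean of at least 1 CPM, only the groups compared, DESeq2 1.42.0, a 2-fold threshold and leaving out each library. Promoters are from RefSeq (GRCm38.p6); none was listed for Usp18, Parp9, Parp14, Dhx58, Zbp1, Mx1, Mx2, Ifi27 and Rtp4. Exon overlaps are from GENCODE M21. Genes were matched by Entrez identifier through the RefSeq table.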

Additional observations from a re-analysis of the deposited data

Results flagged for a closer look

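In 9 genes the change in BAP1 knockout cells differed from that in C91A mutant cells, each against its own line without 4-OHT, by a test of the difference itself (edgeR's quasi-likelihood test, 3 libraries per group). Parp14 had the largest difference, -1.86 (SE 0.38, adjusted p = 2.1e-04). The RNA sensor gene Ddx58 had -1.34 (SE 0.12, adjusted p = 9.6e-12) and the ligase gene Dtx3l -1.20 (SE 0.17, adjusted p = 7.7e-07). Trim25 had -0.94 (SE 0.07, adjusted p = 8.1e-13) and Parp9 -0.75 (SE 0.15, adjusted p = 2.8e-04). Irf1 had -0.68 (SE 0.10, adjusted p = 3.1e-06). Samhd1 had -0.35 (SE 0.08, adjusted p = 6.5e-04). In these 7 genes, and in Eif2ak2, the knockout value was the lower. The difference of Eif2ak2 was -0.34 (SE 0.12, adjusted p = 0.033) and lost its call without knockout replicate 1, at -0.25 (adjusted p = 0.16), C91A mutant replicate 2, at -0.33 (adjusted p = 0.063), or C91A mutant replicate 3, at -0.35 (adjusted p = 0.054). It was also lost without replicate 2 or 3 of the knockout line without 4-OHT, at -0.35 (adjusted p = 0.051) and -0.32 (adjusted p = 0.070), and without replicate 3 of the C91A line without 4-OHT, at -0.31 (adjusted p = 0.075). Stat2 went the other way, with the lower value in C91A mutant cells, at 0.33 (SE 0.08, adjusted p = 0.0022). Since 25.9% of all genes differed between the alleles, 9 of 35 members is a share near the background.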

How the results depend on the processing

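Across 209 gene-by-comparison values and 2532 recomputed values, none changed sign; 83 lost and 7 gained their call, 70 and 4 of them on leaving out a library. With a 2-fold threshold added, the members called became 12 in knockout and 10 in C91A mutant cells against their lines, 3 for the difference of these, 17 (16 without Rtp4, which had 0 counts) in knockout, 15 in C91A mutant and 4 in double knockout cells against wild type, 5 in the knockout line and 18 in the C91A line without 4-OHT against wild type, and 22 between these lines, since the threshold leaves out smaller changes. It was 20 for double knockout against knockout. Leaving out 1 library at a time, the members called ranged over 17 to 21 in knockout cells, 23 to 25 in C91A mutant cells, 8 to 9 for the difference, 19 to 24 in double knockout against knockout, 14 to 15, 23 to 27 and 25 to 26 in double knockout, knockout and C91A mutant cells against wild type, 12 to 16 and 31 to 32 in the knockout and C91A lines without 4-OHT against wild type, and 32 to 33 between these lines. No paired analysis was possible because the labels give no replicate numbers; those used here only name the libraries. Changes of members at a few counts per library, such as Isg15 and Usp18 in knockout cells, are limited by depth.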

Other observations

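Some listed genes lie close together, and a neighbour here is the next gene of the list. Genes outside the list that may lie between them were not considered. On chromosome 19 Ifit2, Ifit3 and Ifit1 follow each other at gaps of 6.58 and 51.9 kb, on chromosome 5 Oasl2 and Oasl1 are 10.9 kb apart, and on chromosome 16 Parp14 is 55.0 kb from Dtx3l. Some neighbours had different calls in the C91A line without 4-OHT against wild type. Ifit1 was higher, at 2.67, while Ifit2 averaged 2.12 ± 0.449 CPM in that line and 1.65 ± 0.286 CPM in wild-type cells and did not pass the test. Rsad2 changed by 1.97, while its neighbour Cmpk2 averaged 2.39 ± 0.373 CPM in the line and 1.55 ± 0.304 CPM in wild-type cells and did not pass (SD, n = 3 each). The differences between neighbours were not tested. Exons of Adar, Ifi35, Rtp4 and Herc6 share 16.8%, 16.8%, 13.9% and 13.7% of their length with another annotated gene, so their counts may hold reads of it. Zbp1 stood at 1.03 (SE 0.21, adjusted p = 2.6e-04) in the C91A line without 4-OHT against wild type, and at -1.37 (SE 0.45, adjusted p = 0.0083) in knockout cells against their line; without knockout replicate 3 the second value was -0.98 (adjusted p = 0.11).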
